A study of Rattus norvegicus with 15 samples.

Results

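Interleukins, tumor necrosis factor (TNF) family ligands, colony-stimulating factors and their receptors were followed in dissociated rat dorsal root ganglion (DRG) cells during 18 h of treatment with dibutyryl cAMP (dbcAMP), a membrane-permeable analog of cAMP. Probes were taken by gene symbol, as those whose platform symbol begins with Il, Tnf or Csf followed, for Il and Csf, by a digit. The gp130 cytokine Il6, its receptor chains Il6r and Il6st, and the hyaluronan-binding protein Tnfaip6 were left out by name. This gave 41 of the 4153 genes named on the array, measured by 45 of its 5088 probes, of which 4423 carried 1 gene symbol. In 37 genes there was 1 probe, and the 4 genes with several were Il1rl1, Il1b, Il3 and Tnfrsf1b. All 45 probes matched a rat gene of the same symbol in the GRCr8 gene table. The cells came from L4 and L5 ganglia of juvenile rats. They were kept for 1, 3, 6, 12 or 18 h in medium with 1.5 mM dbcAMP or in medium alone, with 3 arrays at each of the 5 times. On all 15 arrays Cy5 marked the treated and Cy3 the untreated sample. Each value is the log2 of the deposited ratio of treated over untreated, so a value above 0 means more signal from dbcAMP-treated cells.

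Cytokines are secreted signals that cells of the immune system, glia and neurons use to set inflammation, survival and growth. Interleukin 1 and TNF act through their receptors on the transcription factor NF-kB, whereas many interleukins and colony-stimulating factors act through JAK kinases and STAT proteins. In a ganglion, satellite glia, Schwann cells, resident macrophages and the neurons themselves can make or sense such factors, and after nerve injury cytokines are among the early signals. cAMP acts mainly through protein kinase A, whose target CREB binds a short DNA element called the cAMP response element (CRE), and elevated cAMP is widely known to damp the release of TNF by macrophages.

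Because the treatment acts on CREB, the 250 bases upstream of 1 transcript start per gene were searched on both strands for a full CRE (TGACGTCA), for the CRE core (TGACG, which the full element also holds), for the AP-1 element (TGANTCA) and for the NF-kB consensus. The windows came from RefSeq on build GRCr8, for 30 of the 41 genes. The genes without a window, which were not searched, include Csf3, Csf1, Il2rb and Il13, all past the test at 18 h. The start that RefSeq's table uses lay within 50 bases of the gene's outer 5′ bound for 21 of the 30 and farther inside the gene for 9 (Csf1r, Il12rb1, Il15, Il18bp, Il1a, Il1r1, Il1rl1, Il1rl2 and Il3ra), so that other starts of these genes were not searched. None of the 30 held a full CRE, which 1.70% of all 27457 rat promoters did. The CRE core was in 1 of 30, that of Il12rb2, against 19.0% of all promoters. AP-1 letters were in 5 of 30 (Il15, Il1a, Il9, Tnfrsf1b and Tnfrsf8) against 6.36% of all, and the NF-kB consensus was in 4 of 30 (Il12rb2, Il1r1, Il1rap and Tnfrsf8) against 6.41%. A match is a description of letters in a window, not a binding site. The windows of 3 genes that passed the test at 18 h are shown 5′ to 3′ on the strand of the gene. They belong to the receptor gene with the highest ratio (Il1rl1, + strand, chr9:50203388-50203637), to the lowest TNF receptor (Tnfrsf4, + strand, chr5:171888884-171889133) and to the interleukin with an AP-1 match (Il15, + strand, chr19:42544456-42544705), where capitals mark the match, which begins 176 bases before that transcript start. The start used lay 46.3 kb inside the outer bound for Il1rl1 and 8.5 kb inside it for Il15.
Il1rl1: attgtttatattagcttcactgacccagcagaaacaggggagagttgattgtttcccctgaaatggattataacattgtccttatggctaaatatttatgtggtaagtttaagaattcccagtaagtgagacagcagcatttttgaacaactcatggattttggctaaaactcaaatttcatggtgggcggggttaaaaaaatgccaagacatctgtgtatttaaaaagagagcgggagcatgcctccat
Tnfrsf4: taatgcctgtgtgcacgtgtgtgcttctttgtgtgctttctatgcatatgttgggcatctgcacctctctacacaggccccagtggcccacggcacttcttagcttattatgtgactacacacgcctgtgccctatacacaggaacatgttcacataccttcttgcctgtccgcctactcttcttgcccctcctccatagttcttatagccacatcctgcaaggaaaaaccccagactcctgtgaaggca
Il15: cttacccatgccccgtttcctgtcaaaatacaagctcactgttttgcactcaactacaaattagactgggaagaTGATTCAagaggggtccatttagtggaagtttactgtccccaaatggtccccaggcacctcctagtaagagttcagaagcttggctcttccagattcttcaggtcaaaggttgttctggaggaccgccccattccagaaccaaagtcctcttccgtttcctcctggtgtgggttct

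Log2 ratios had an SD between 0.357 and 0.434 in 9 hybridizations. In the remaining 6 it was between 0.627 and 0.703, and these were every hybridization at 18 h, numbers 1 and 2 of 12 h, and number 3 of 6 h. Nothing states that replicate arrays represent independent cultures, and the p-values therefore reflect only array-to-array spread, which may be technical. No array had the dyes exchanged, so a dye bias of a probe cannot be told apart from treatment at a single time. Only ratios were deposited, and whether a spot was above background on an array is unknown here. Fewer cells of a type and less RNA per cell cannot be told apart in such cultures.

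Cytokine and receptor probes that passed the test were few at early times and most frequent at 18 h, as were probes in general. At 1 h 0 of 44 tested probes passed (limma, Benjamini-Hochberg adjusted p under 0.05), where 2.33% of all probes did. An unadjusted p under 0.05 was found for 1 of the 44, Csf1, where 9.81% of all probes had one. Tests at 3 h called 2 of 44 (2.87% of all probes), at 6 h 3 of 45 (4.19%) and at 12 h 5 of 44 (8.58%). At 18 h 12 of 44 passed, or 27.3%, a share not far from the 22% of all probes that did. Of these, 8 probes of 6 genes were higher (18.2%, against 10.6% of all probes) and 4 were lower (9.09%, against 11.3%). With every array scaled to a common spread, or without array 1, 3 were higher and 4 lower at 18 h, and with the arrays of 18 h alone 3 were higher and 1 lower. The count at 12 h rested on single arrays, with 2 without array 1, 3 without array 2 and 8 without array 3, and the counts at 3 h and 6 h fell to 0 and to between 1 and 2 when an array was left out. The median of the 44 was 0.16 at 18 h, beside 0.01 over all probes tested, and 61.4% of them lay above 0, beside 51.5%. Over the 5 times, 32 of the 45 probes passed at none, 8 at 1 time, 1 at 2 times and 4 at 3 times. The same tally over all probes is not given here, nor are shares of all probes for the other scalings or left-out arrays.

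**Figure D1:**
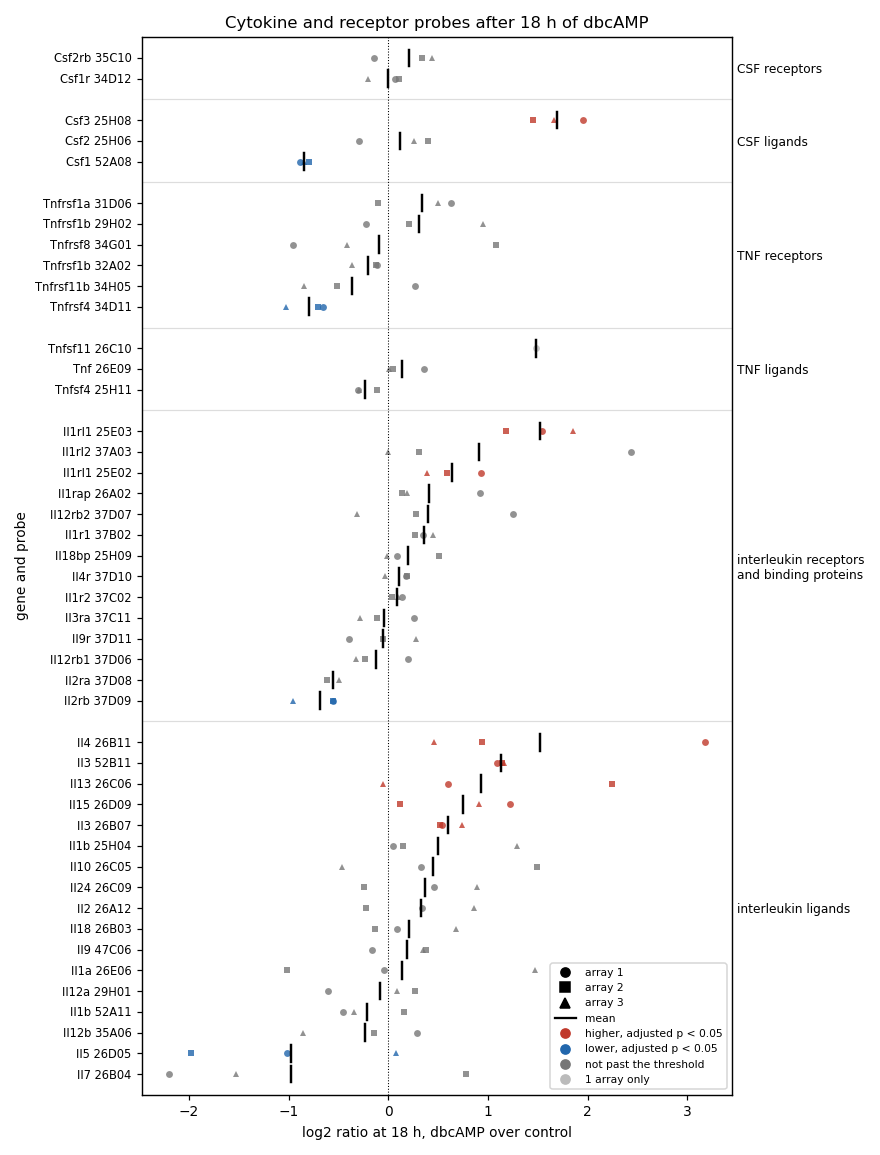
Log2 ratios (dbcAMP over control, x axis) of the 45 probes at 18 h, grouped by role. Symbols are the 3 arrays, black bars their mean, and colour gives the call. Csf1 and Il3 probe 52B11 have closely placed arrays, whereas Il4, Il13, Il5 and Il7 have arrays more than 2 log2 units apart.

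By role, 5 of 17 interleukin probes were higher and 1 was lower at 18 h, with means from -0.98 to 1.53 and a median of 0.32. Among 14 probes of interleukin receptors and binding proteins 2 were higher and 1 was lower, with means from -0.69 to 1.52. Of the 6 TNF receptor probes 1 was lower and none was higher, with means from -0.79 to 0.34. Among the 3 colony-stimulating factors 1 was higher and 1 lower, and neither of their 2 receptor probes nor the 2 tested TNF ligands passed. The spread between arrays was wider for these genes than for the array as a whole, with a median SD at 18 h of 0.338 against 0.288. Ratios were missing on at least 1 array for 5 of the 45 probes (11.1%), against 5.37% of all probes.

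Csf3, which encodes granulocyte colony-stimulating factor, the main growth signal for neutrophils, gave the highest mean of the set at 18 h. Its 3 arrays read 1.96, 1.45 and 1.66, a mean of 1.69 ± 0.25 (SD, n = 3) or a 3.22-fold ratio, with a 95% interval on the log2 scale from 1.40 to 1.98 (adjusted p = 3.25e-06). All 3 lay well above those of earlier times, and the probe ranked 16 among 5006. At 1 h the arrays of Csf3 read 0.18, 0.01 and 0.26, and at 3 h they read 0.52, 0.26 and 0.32, neither past the threshold. The ratio had passed it at 6 h, with arrays at 0.43, 1.00 and 0.74 and a mean of 0.72 (adjusted p = 0.00742), and at 12 h, with a mean of 0.47 (adjusted p = 0.0462). Csf3 thus lay above 0 on 15 of 15 arrays. The call at 18 h held when any array was left out (adjusted p from 2.95e-05 to 8.34e-05). The call at 12 h was lost without any 1 of its arrays (adjusted p from 0.0551 to 0.196), and that at 6 h without array 2 (0.0714) or array 3 (0.0518).

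Il1rl1 encodes the receptor of interleukin 33, known as ST2, found on mast cells and type 2 lymphocytes and also made in a soluble form. Its probe 25E03 read 1.54, 1.18 and 1.85 at 18 h, a mean of 1.52 ± 0.34 (SD, n = 3) or 2.88-fold (adjusted p = 8.09e-06). This probe had been above 0 on 15 of 15 arrays, with means of 0.24 at 1 h, 0.24 at 3 h, then 0.60 (6 h; adjusted p = 0.0244) and 0.90 (12 h; adjusted p = 0.00143). The calls at 12 h and 18 h held without any single array, whereas that at 6 h was lost without array 1 (adjusted p = 0.138) or array 2 (0.128). The second probe of Il1rl1, 25E02, followed another course. It read 0.93, 0.59 and 0.38 at 18 h, a mean of 0.63 ± 0.27 (SD, n = 3; adjusted p = 0.00731), after means of -0.02 at 6 h and -0.28 at 12 h. Both probes of Il1rl1 were thus higher at 18 h, by unequal amounts, and before 18 h only 25E03 had passed the test. The call of 25E02 at 18 h was lost without array 1 (adjusted p = 0.0731).

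**Figure D2:**
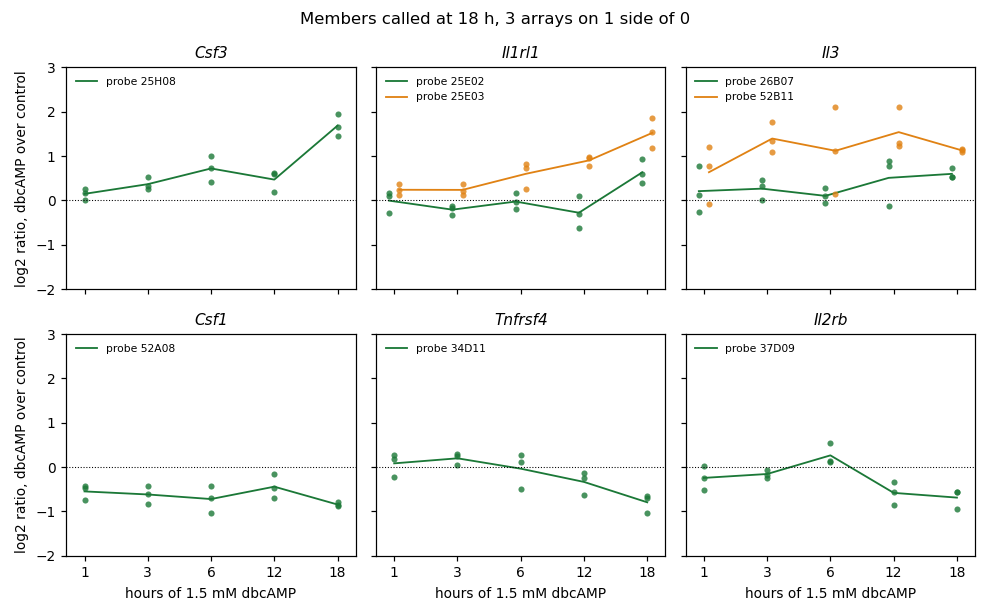
Log2 ratios (dbcAMP over control, y axis) at 1, 3, 6, 12 and 18 h (x axis, evenly spaced) for 6 of the genes that passed the test at 18 h with the 3 arrays on 1 side of 0. Points are arrays and lines join the means. Csf3 and Il1rl1 probe 25E03 are highest at 18 h, Csf1 lies below 0 on every array, and the means of Il3 probe 52B11 lie between 1.12 and 1.54 from 3 h on.

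Csf1 encodes macrophage colony-stimulating factor, the survival signal of macrophages and microglia, and its ratio lay on the other side of 0 from that of Csf3. At 18 h the arrays read -0.89, -0.80 and -0.85, a mean of -0.85 ± 0.05 (SD, n = 3) or a ratio of 0.557 (adjusted p = 0.000656). The gene was below 0 on 15 of 15 arrays, with means of -0.55 at 1 h (adjusted p = 0.0528), -0.62 at 3 h (0.0225), -0.72 at 6 h (0.00746) and -0.44 at 12 h (0.0623). The gene thus passed at 3, 6 and 18 h and not at 1 or 12 h, and the difference between 18 h and 1 h, -0.30, did not pass the test (95% interval from -0.71 to 0.12, adjusted p = 0.482). The call at 18 h held without any 1 array, that at 3 h was lost without any 1 (adjusted p from 0.0559 to 0.275), and that at 6 h was lost without array 3 (0.0769). The Csf1 probe sits on a plate of 96 probes whose median at 18 h was -0.34, and with plate medians subtracted on each array the mean was -0.51 (adjusted p = 0.0178). The call at 3 h did not survive that centring (adjusted p = 0.108).

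The receptor of Csf1, encoded by Csf1r and a marker of macrophages, gave 0.07, 0.11 and -0.20 at 18 h, a mean of -0.01 (95% interval from -0.27 to 0.25, adjusted p = 0.970). Its mean was 0.07 after plate centring, so it has no settled direction. Csf2, the granulocyte-macrophage factor, gave -0.29, 0.40 and 0.26, a mean of 0.12 (adjusted p = 0.670). Csf2rb, the signalling chain shared by the receptors of Csf2, Il3 and Il5, had a mean of 0.21 (adjusted p = 0.360). The 3 growth factors of myeloid cells thus differed, with Csf3 higher, Csf1 lower and Csf2 past the threshold at no time.

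The genes of the type 2 cytokines lie close together. In the GRCr8 gene table Il4, Il13, Il5, Csf2 and Il3 fall within a stretch of 12 protein-coding genes. At 18 h probes of Il4, Il13 and Il3 were higher, that of Il5 was lower, and that of Csf2 did not pass. Il3, a growth factor of mast cells and basophils, had 2 probes. Probe 52B11 read 1.09, 1.14 and 1.16 at 18 h, a mean of 1.13 ± 0.03 (SD, n = 3) or 2.19-fold (adjusted p = 0.0177), and probe 26B07 read 0.54, 0.52 and 0.74, a mean of 0.60 (adjusted p = 0.0475). Although the 3 arrays of either probe were close at 18 h, the spread over all times entered the test, and both calls were lost without any 1 array (adjusted p from 0.0638 to 0.0656 for 52B11 and from 0.10 to 0.17 for 26B07). Probe 52B11 of Il3 was above 0 on 14 of 15 arrays. It passed at 3 h, with 1.78, 1.08 and 1.33 (mean 1.40, adjusted p = 0.0231), and at 12 h, with 1.30, 2.10 and 1.23 (mean 1.54, adjusted p = 0.00769), but not at 6 h, where its arrays were 2.10, 1.11 and 0.15 (mean 1.12, adjusted p = 0.0623). Leaving out any 1 array ended the call at 3 h (adjusted p from 0.0975 to 0.215), and leaving out array 2 ended that at 12 h (0.0683). Probe 26B07 of Il3 passed only at 18 h, and not after plate centring (0.44, adjusted p = 0.125).

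Il4, the cytokine that drives type 2 helper cells, read 3.18, 0.94 and 0.45 at 18 h, a mean of 1.53 ± 1.45 (SD, n = 3; adjusted p = 0.00889). All 3 arrays were above 0, and array 1 stood far above the others. Without array 1 the mean of Il4 was 0.70 (adjusted p = 0.0493). Il13, a type 2 cytokine close to Il4 in function, read 0.60, 2.25 and -0.06, a mean of 0.93 ± 1.19 (SD, n = 3; adjusted p = 0.0400). Here array 2 set the height, and without it the mean of Il13 was 0.27 (adjusted p = 0.381), while without array 1 the adjusted p was 0.0654. Il5, the growth factor of eosinophils, read -1.02, -1.99 and 0.07, a mean of -0.98 ± 1.03 (SD, n = 3; adjusted p = 0.0146). Array 3 of Il5 showed no lower signal, the call was lost without array 1 (adjusted p = 0.0645), and without array 2 the mean was -0.47 (0.139). With the arrays of 18 h alone, none of these calls held (adjusted p = 0.200 for Il4, 0.304 for Il13 and 0.241 for Il5). Earlier, Il4, Il13 and Il5 passed at no time, with Il4 at 0.96, 0.94 and 0.06 at 12 h.

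Il15, which sustains natural killer cells and memory T cells, read 1.22, 0.12 and 0.91 at 18 h, a mean of 0.75 ± 0.57 (SD, n = 3; adjusted p = 0.0116), with array 2 close to 0. The call was lost without array 1 (adjusted p = 0.115), without array 3 (0.0670) and with the arrays of 18 h alone (0.173). Means of Il15 before 18 h lay between 0.04 and 0.21. Il7, a growth factor of early lymphocytes, had the lowest mean of the set, -0.98, but its arrays read -2.20, 0.78 and -1.53, on both sides of 0, and it did not pass (adjusted p = 0.122). Without array 2 the mean of Il7 was -1.86, past the threshold.

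**Figure D3:**
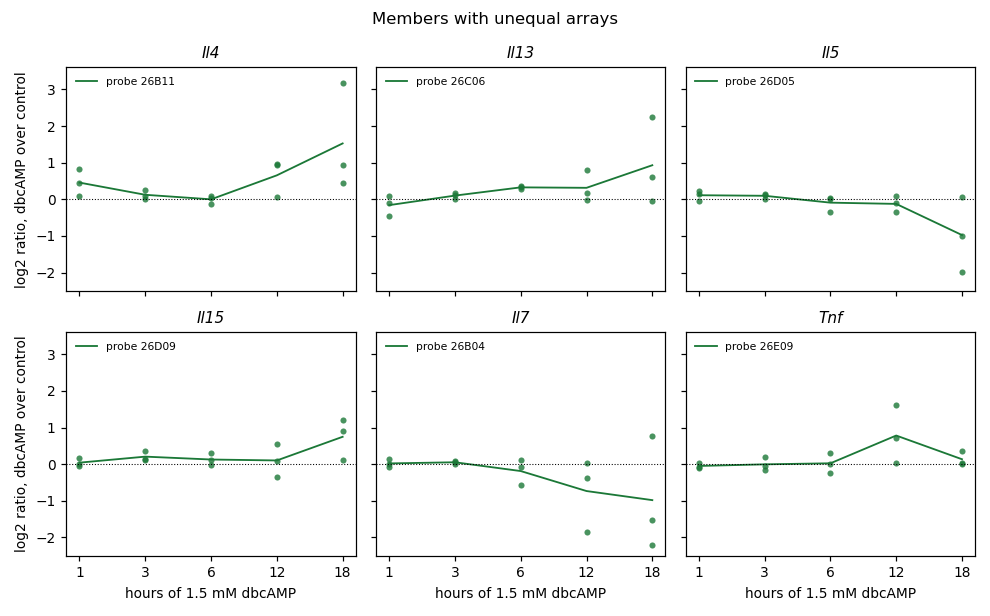
Log2 ratios (dbcAMP over control, y axis) at the 5 times (x axis, in hours, evenly spaced) for 6 genes whose arrays differ widely. Each point is 1 array and the line follows the mean. The arrays of 3 h lie within 0.36 of 0, and at 18 h 1 or 2 arrays of Il4, Il13, Il5 and Il7 stand apart from the rest, as array 2 of Tnf does at 12 h.

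Il2rb and Tnfrsf4, both receptors of lymphocytes, were lower at 18 h on each of the 3 arrays. Il2rb, the beta chain shared by the receptors of interleukins 2 and 15, read -0.55, -0.56 and -0.95, a mean of -0.69 ± 0.23 (SD, n = 3) or a ratio of 0.620 (adjusted p = 0.00323). At 12 h its arrays read -0.85, -0.56 and -0.33, a mean of -0.58 (adjusted p = 0.0208), and at 6 h all 3 were above 0, with a mean of 0.26 (adjusted p = 0.362). The call of Il2rb at 12 h was lost without array 1 (adjusted p = 0.165) or array 2 (0.0736). Tnfrsf4, the costimulatory receptor OX40 of activated T cells, read -0.65, -0.71 and -1.03 at 18 h, a mean of -0.79 ± 0.20 (SD, n = 3) or a ratio of 0.577 (adjusted p = 0.00242). Its means were 0.08 at 1 h, 0.20 at 3 h, -0.04 at 6 h and -0.34 at 12 h, none past the threshold. The calls of both genes at 18 h held without any 1 array. The ligand of OX40, encoded by Tnfsf4, had a mean of -0.24 at 18 h (adjusted p = 0.326), and Il2, the ligand of Il2rb, read 0.33, -0.22 and 0.86, a mean of 0.32 (adjusted p = 0.149).

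The other TNF family genes did not pass at 18 h. Tnf itself read 0.36, 0.04 and 0.00, a mean of 0.13 (95% interval from -0.33 to 0.60, adjusted p = 0.696), and after plate centring its mean was -0.02. It passed at 12 h only, with 0.72, 1.61 and 0.02, a mean of 0.78 ± 0.80 (SD, n = 3; adjusted p = 0.0389). There arrays 1 and 2, the wide arrays of that time, were high and array 3 was near 0. The call of Tnf at 12 h was lost without array 1 (adjusted p = 0.132), without array 2 (mean 0.37, adjusted p = 0.283) and after plate centring (0.0635). Tnfrsf1a, the widely expressed receptor of TNF, read 0.63, -0.11 and 0.49 at 18 h, a mean of 0.34 (adjusted p = 0.149). Tnfrsf1b, the second TNF receptor, had 2 probes with means of 0.31 (29H02; arrays -0.22, 0.21 and 0.95) and -0.20 (32A02; arrays -0.11, -0.12 and -0.37) at 18 h, neither past the threshold. At 12 h array 1 of Tnfrsf1b probe 29H02 read -3.29 beside -0.31 and -0.41, and probe 32A02 read 0.37 on that array. Tnfrsf11b, the decoy receptor osteoprotegerin, read 0.27, -0.51 and -0.84 at 18 h, a mean of -0.36 (adjusted p = 0.178). Its ligand Tnfsf11 had a ratio on 1 array at 18 h, 1.49, and was not tested there.

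The interleukin 1 family held both the Il1rl1 call and several genes that did not pass. Il1b, the main secreted pyrogen of macrophages, read 0.05, 0.14 and 1.29 on probe 25H04 at 18 h, a mean of 0.49 (95% interval from 0.00 to 0.99, adjusted p = 0.142). This probe of Il1b came nearest to the threshold at 6 h, with 0.86, 0.58 and 0.80, a mean of 0.74 ± 0.14 (SD, n = 3; adjusted p = 0.0980), and at 12 h its mean was -0.47. The other Il1b probe, 52A11, read -0.45, 0.16 and -0.35 at 18 h, a mean of -0.21 (adjusted p = 0.359), and 0.12 after plate centring. It had a ratio on 1 of the 6 arrays of 1 and 3 h, where it read 1.72, and its mean at 6 h was 0.09. At 18 h the means of the Il1b probes thus lay on opposite sides of 0 as deposited, and both were above 0 after plate centring. Il1a, next to Il1b in the genome, read -0.05, -1.02 and 1.47 at 18 h, a mean of 0.14 (adjusted p = 0.801), and -0.02 after plate centring. Its arrays at 1 h were 0.57, 0.43 and 0.85 and at 6 h 0.50, 0.40 and 1.17, with adjusted p of 0.610 and 0.290.

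**Figure D4:**
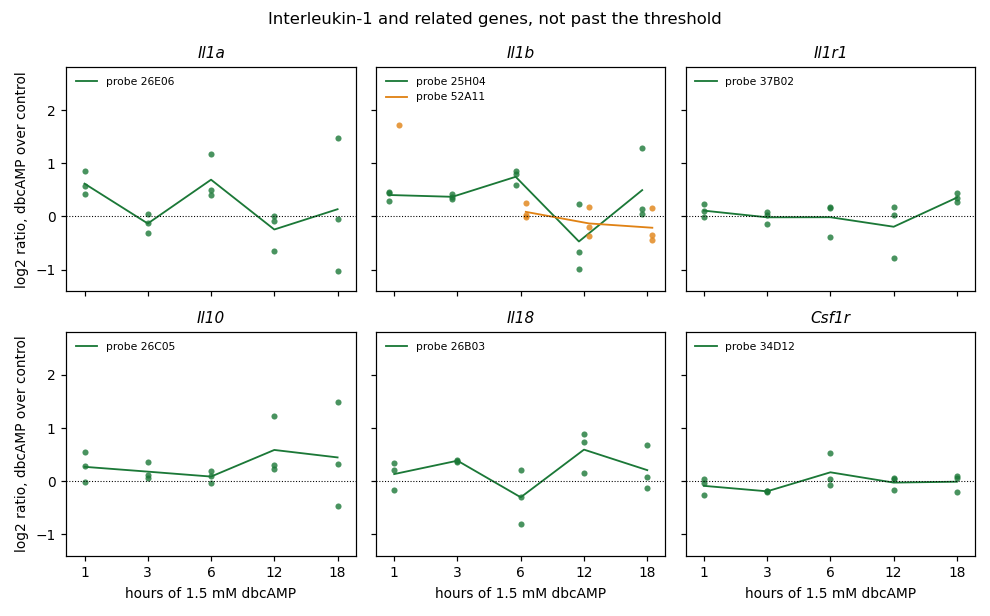
Log2 ratios (dbcAMP over control, y axis) at the 5 times (x axis, in hours, evenly spaced) for Il1a, Il1b, Il1r1, Il10, Il18 and Csf1r, which passed the test at no time. Points are arrays, and lines join the means of times with at least 2 ratios. Il1a and Il1b probe 25H04 have their highest means at 6 h, and the arrays of Il1a and Il10 lie on both sides of 0 at 18 h.

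In the same table Il1r2, Il1r1, Il1rl2 and Il1rl1 lie within 5 protein-coding genes. Il1r1, the signalling receptor of interleukin 1, read 0.35, 0.27 and 0.44 at 18 h, a mean of 0.35 (adjusted p = 0.142). All 3 arrays of Il1r1 were above 0, and its adjusted p was 0.0596 after plate centring. Il1rl2, the receptor of interleukin 36, read 2.43, 0.31 and -0.01, a mean of 0.91 that rested on array 1 (adjusted p = 0.0809, and 0.0490 after plate centring). Il1r2, a decoy receptor, had a mean of 0.09 (adjusted p = 0.785). The co-receptor Il1rap, which lies on another chromosome, had a mean of 0.41 (adjusted p = 0.107). Of the 4 neighbouring genes, Il1rl1 was the 1 past the threshold at 18 h.

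Il10, an anti-inflammatory cytokine, read 0.32, 1.49 and -0.47 at 18 h, a mean of 0.45 (adjusted p = 0.274). Il18, a cytokine activated by caspase-1, read 0.09, -0.13 and 0.67, a mean of 0.21 (adjusted p = 0.486), after 0.88, 0.75 and 0.16 at 12 h (mean 0.60, adjusted p = 0.0810). Il18bp, which neutralizes Il18, had a mean of 0.20 at 18 h (adjusted p = 0.336). The remaining interleukin genes (Il9, Il12a, Il12b and Il24) had means from -0.24 to 0.37 at 18 h. The receptor genes Il2ra, Il3ra, Il4r, Il9r, Il12rb1 and Il12rb2 had means from -0.55 to 0.40, and the TNF receptor Tnfrsf8 a mean of -0.10, none past the threshold.

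Whether a gene changed with time was tested by the difference between 18 h and 1 h, in which a constant dye bias cancels. It passed for 3 of 43 tested probes, where 2.74% of all probes did. Csf3 rose by 1.54 (SE 0.19, 95% interval from 1.13 to 1.95, adjusted p = 0.000662), and Il1rl1 probe 25E03 rose by 1.28 (SE 0.19, adjusted p = 0.00345). Tnfrsf4 fell by 0.88 (SE 0.22, adjusted p = 0.0488), which was not past the threshold after plate centring (-0.76, adjusted p = 0.125). With all arrays of 1 replicate number left out, Csf3 passed without number 1 (adjusted p = 0.0295) or number 2 (0.0468) and did not pass without number 3 (0.0599). The call of Il1rl1 probe 25E03 was lost each time (0.133, 0.0622 and 0.0663), as was that of Tnfrsf4 (from 0.191 to 0.297). Differences that did not pass were 0.64 for Il1rl1 probe 25E02 (adjusted p = 0.128), 0.49 for Il3 probe 52B11 (0.633), 1.07 for Il4 (0.321), 1.09 for Il13 (0.215), -1.09 for Il5 (0.134) and -0.44 for Il2rb (0.273). Testing all times together by an F test gave 2 of 43 calls, Csf3 (adjusted p = 0.0047) and Il1rl1 probe 25E03 (0.0111), where 1.87% of all probes did, and for neither of them when any replicate number was left out.

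The 45 probes lay on 10 of 53 plates of 96, as read from their well names, with 14 on plate 26, 10 on plate 37 and 7 on plate 25. At 18 h the median of the mean ratios of all probes was 0.28 on plate 26, which holds most interleukin ligands, 0.08 on plate 25, -0.13 on plate 37 and -0.34 on plate 52. Centring each array on its plate medians left Csf3 at 1.68, Il1rl1 probe 25E03 at 1.51, Il4 at 1.37, Il15 at 0.59, Tnfrsf4 at -0.72, Il2rb at -0.57 and Il5 at -1.13, all past the threshold. It took the median of the interleukin ligands from 0.32 to 0.21, and the calls of Il3 probe 26B07 and Il13 were lost. Il3 probe 52B11 went to 1.46 (adjusted p = 0.00545).

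**Figure D5:**
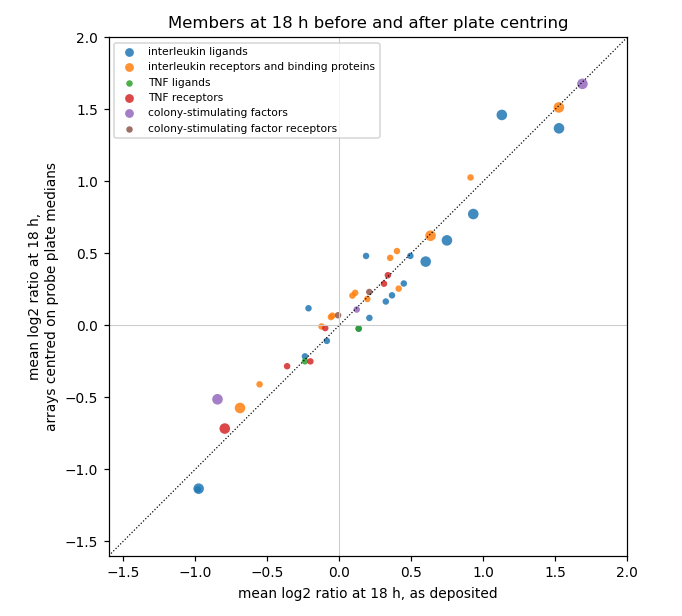
Mean log2 ratio at 18 h as deposited (x axis) against the mean after each array was centred on the medians of its probe plates (y axis), for the 44 tested probes coloured by role. Large points passed the test as deposited and the dotted line is equality. Csf1 and Il3 probe 52B11, on plate 52, lie above the line, and the interleukin ligands of plate 26 lie below it.

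Genes of the NF-kB and JAK-STAT pathways through which these factors act were measured for 20 of 37 genes listed, with 21 probes. At 18 h 2 of the 21 probes were higher and 5 were lower, where 10.6% of all probes were higher and 11.3% lower, with a median of 0.20 over the means, while medians on single arrays lay between -0.14 and 0.0015. Nfkbia, the inhibitor that holds NF-kB in the cytoplasm and is itself an NF-kB target, had a mean of -0.60 (adjusted p = 0.00347). Jak3, the kinase of receptors that hold the common gamma chain, had a mean of -0.69 (0.00466), and Cish, a feedback inhibitor of STAT5 signalling, of -0.80 (0.0319). The interferon regulatory factor Irf1 had a mean of -0.50 (0.0437), while the phosphatase Ptpn6 was higher at 0.54 (0.00393). The probes of Stat5a passed in opposite directions, at 0.65 and -1.24. Socs3 and Stat3, at 0.23 and 0.31, did not pass.

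Marker genes of the cell types that such cultures can hold were read at 18 h against the same shares, 10.6% of all probes higher and 11.3% lower. A ratio does not show whether a marker was present, so the labelled cell type could not be checked by level. Of 9 measured genes of T, NK and B cells (13 listed, 11 probes) 4 probes were higher, 2 of Gzmb and those of Cd4 (0.59) and Cd8a (0.95), and none was lower. The remaining Gzmb probe had a mean of 0.03 and Cd5 one of -0.96 (adjusted p = 0.0892), neither past the threshold. Their median was 0.30 and the median on single arrays lay between 0.29 and 0.44. Cd3d and Cd3g, which define T cells, had means of 0.21 and -0.24 and did not pass, and Cd8b had a mean of -0.04. Macrophage markers (7 of 12 measured) gave 1 higher, C1qb, and 1 lower, Lyz2, with array medians from -0.37 to 0.07. Mast cell markers (5 of 9) gave 1 higher, Tpsb2, with array medians from 0.08 to 0.26, and Kit at 0.26 did not pass. Of 8 fibroblast genes (9 probes) 3 were lower, with array medians from -0.34 to -0.13. Neuronal markers (10 of 12 genes, 12 probes) gave 1 higher and 2 lower, Schwann and satellite glia (7 of 9 genes) 1 lower, and endothelium (5 of 6 genes) none either way. Their part in the ratios of the cytokine genes was not tested.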

How the data were processed

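RNA of dbcAMP-treated (Cy5) and untreated (Cy3) DRG cells was hybridized to spotted oligonucleotide arrays after Genisphere 3DNA labelling. The authors deposited linear ratios of treated over untreated signal. How they scanned, corrected, normalized and filtered the spots is not stated in the labels or the paper. Since the median ratio of an array was 0.997 to 1.02, the log2 of the deposited ratio was used without further scaling. Missing ratios numbered 28 to 105 per array. The first time is 1 h in the labels of its arrays and 0 h in their treatment protocol, and the substrate of each array (poly-L-lysine or myelin) is not given. Genes were named through the platform annotation. All 5088 probes were fitted in limma 3.58.1 (R 4.3.3) with 1 mean per time over 15 arrays (lmFit, eBayes), and a probe entered the test of a time with a ratio on 2 or 3 of its arrays. P-values were two-sided and adjusted by Benjamini-Hochberg over all probes tested, with a threshold of 0.05. Intervals are 95% intervals of that fit. The fit was tested on simulated data in which a probe had the same spread on every array, so the wider spread of the 18 h arrays was not part of that test.

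Named were all probes called at any time or for 18 h minus 1 h, all probes of genes with several, the 4 highest and 4 lowest means at 18 h, and a set of textbook genes, 27 probes in all, and others appear by role, pathway or neighbourhood. Members and lists were chosen with earlier results of these data known. Replicate numbers were not used to pair arrays, and whether arrays of the same number share a culture is not stated. The deviations of same-numbered arrays correlated over 0.1 in 0 of 30 pairs, which cannot settle it. Alternatives were other scalings, plate centring, other handling of spread, missing values and thresholds, and each array left out. Promoter sequences are RefSeq's, on GRCr8. Plots used matplotlib 3.10.9.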

Additional observations from a re-analysis of the deposited data

Results flagged for a closer look

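The difference between 18 h and 1 h passed its own test for 3 probes, which drew attention to them. Csf3 was 1.54 higher on the log2 scale at 18 h than at 1 h, with arrays at 1.96, 1.45 and 1.66 against 0.18, 0.01 and 0.26 (limma, adjusted p = 0.000662). Il1rl1 probe 25E03 was 1.28 higher, with arrays at 1.54, 1.18 and 1.85 against 0.37, 0.13 and 0.23 (adjusted p = 0.00345). Tnfrsf4 differed by -0.88, with arrays at -0.65, -0.71 and -1.03 against -0.21, 0.28 and 0.18 (adjusted p = 0.0488). In these probes, picked by the test itself, the arrays of the 2 times did not overlap. That separation adds no support, and its share over all probes is not given here. The 18 h arrays are also those of wide spread, and after scaling to a common spread no difference passed. The part of the spread in these differences was not tested.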

How the results depend on the processing

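Of the 12 calls at 18 h, those of Csf3, Il1rl1 probe 25E03 and Csf1 were kept in 13 of 14 alternatives and lost with the methods' t-test, and those of Il4, Tnfrsf4 and Il2rb were kept in 12 of 14, lost with that test and with the arrays of 18 h alone. Kept less often were Il1rl1 probe 25E02 and Il5 (10 of 14 each), Il15 (9) and Il3 probe 52B11 (8). Il13 was kept in 6 and Il3 probe 26B07 in 5. At a single time the methods' t-test was an ordinary t-test on the arrays of that time, with Benjamini-Hochberg adjustment. It called 0 of the cytokine and receptor probes at 3, 6, 12 and 18 h and for 18 h minus 1 h. With the arrays of a time alone, 4 passed at 3 h, 0 at 6 h, 0 at 12 h and 4 at 18 h. Scaling to a common spread gave 2 at 1 h, 5 at 6 h, 2 at 12 h, 7 at 18 h and 0 for 18 h minus 1 h and for any difference among times. Array weights gave 1 at 1 h, 4 at 3 h, 5 at 6 h, 2 at 12 h and 9 at 18 h. At 1 h, 1 passed with arrays centred on their medians, with complete probes only, with any ratio counted and at a threshold of 0.1. Plate centring gave 1 at 3 h, 3 at 12 h and 11 at 18 h, and at 6 h it added Il3 probe 52B11 (adjusted p = 0.0467). A threshold of 0.01 gave 0 at 3 h, 2 at 12 h, 7 at 18 h and 1 among the times, and 0.1 gave 5 at 6 h, 8 at 12 h and 4 among the times. Leaving out 1 array gave 0 at 3 h, 1 to 2 at 6 h, 2 to 8 at 12 h and 7 to 12 at 18 h, and leaving out a replicate number gave 0 to 1 for 18 h minus 1 h and 0 among the times. The share of all probes that passed under each alternative is not given here, so these counts cannot be set beside the array as a whole. The cause of these changes was not tested. The replicate block, with numbers not known to pair arrays, gave 3 at 12 h and 13 at 18 h, and 7 of 15 arrays correlated best with their own number. Without the 3 wide arrays of 6 and 12 h, chosen after seeing the data, 3 passed at 6 h, 13 at 18 h and 4 for 18 h minus 1 h. The 3 at 6 h were not those of the main fit, as Il3 probe 52B11 was gained (adjusted p = 0.0157) and Csf1 was lost (0.0507).

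Among the 27 named probes, the directions at 18 h that turned belong to probes that did not pass. Plate centring gave -0.023 for Il1a, -0.023 for Tnf, 0.070 for Csf1r and 0.12 for Il1b probe 52A11, and outside those 27 it moved Il3ra from -0.05 to 0.07 and Il9r from -0.06 to 0.06. Leaving out 1 array gave -0.015 to 0.33 for Csf2, -0.023 to 0.38 for Il18, -0.071 to 0.91 for Il10, -0.53 to 0.71 for Il1a, -0.0078 to 0.58 for Tnfrsf1b probe 29H02 and -0.065 to 0.089 for Csf1r. Signal over background is unknown, and 3 arrays a time limit the precision of each ratio.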
